A study of Homo sapiens with 6 samples.

Results

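The genes of mitosis and the spindle checkpoint were followed from transcription to steady-state RNA in K562 cells, a human chronic myelogenous leukemia line that grows in suspension. The list held 43 genes, taken by name, and 42 of them were found among the 37111 genes whose counted transcripts could be matched to an annotation. CDKN3, a phosphatase that acts on cyclin-dependent kinases, had no matched transcript and was not analysed here. The cells carried no treatment or engineered allele, so the only groups were the 2 assays: 2 libraries of PRO-seq, which maps RNA polymerases caught in the act of transcribing, and 4 libraries of rRNA-depleted total RNA-seq, which measures accumulated RNA. The authors state that the cells for all 6 libraries shared 1 flask and the same conditions, so no separate culture was sampled. The p-values below therefore measure only the spread between libraries of that flask, which may be technical, and not the spread between cultures. The cells were also not synchronized by any step the labels describe, so each value is an average over the cell cycle of 1 line, and a larger share of mitotic cells cannot be told apart from more RNA per mitotic cell.

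Progress through mitosis is driven by cyclin B with CDK1, helped by the Polo and Aurora kinases. The spindle checkpoint holds back the anaphase promoting complex, through its activator CDC20, until every kinetochore is attached to the spindle. Separase then cuts cohesin and the sister chromatids part. Most genes of this program are known to be transcribed mainly in G2 and M phase, from promoters with CHR elements (cell cycle genes homology regions, bound by the MuvB complex with MYBL2 and then FOXM1) and CCAAT boxes, bound by NF-Y. Many of their proteins are destroyed as cells leave mitosis.

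Counts assigned to transcription units (TUs, a gene's counted transcript) ranged from 5732780 to 9002746 in RNA-seq and from 6993816 to 7245632 in PRO-seq. RNA-seq replicates 1 and 3, and replicates 2 and 4, lay closer to each other (chi-square per degree of freedom of 1.11 and 1.12) than the other RNA-seq pairs (1.73 to 2.11). Fits in which each close pair was summed or left out are therefore given under the dependence on processing. The K562 markers of the erythroid lineage were expressed in RNA-seq, with all 9 between 10.8 and 6290 TPM (reads per length of transcript, scaled to a common sum in each library). The 2 matched B cell markers reached at most 0.201 TPM, the 3 fibroblast markers 1.36 TPM and the 2 hepatocyte markers 0.483 TPM. Of the T cell markers CD3D stood at 109 TPM while CD2 and CD3E stood at 0.047 and 0.324 TPM, and the epithelial marker EPCAM stood at 120 TPM. The part of any other cell type in the results was not tested.

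The mitotic genes were among the more strongly expressed mRNAs in both assays. The stability measure needs more than 10 TPM in PRO-seq and more than 1 TPM in RNA-seq, and 39 of the 43 genes (90.7%) met both limits, against 46.2% of all 18869 mRNAs. Over these 39, the median PRO-seq level was 78.5 TPM, against 47.5 TPM for all mRNAs past the same limits, and the median RNA-seq level was 103 TPM against 31.3 TPM. Placed among all mRNAs with at least 1 count, 30 of the 39 stood at or above the level exceeding 75% of them in PRO-seq and 31 in RNA-seq. The mRNAs of this ranking did not have to meet the limits that the 39 genes met, which raises these counts. The share of mRNAs past the limits that stood as high was not determined, so the medians above are the like comparison. The 42 matched genes took 0.372% and 0.379% of the matched counts in the PRO-seq libraries and 0.683% to 0.701% in the RNA-seq libraries.

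Past the limits, PRO-seq levels differed less between these genes than RNA-seq levels did. Among the 39 genes PRO-seq levels ran from 10.6 to 214 TPM, a 20.2-fold range, and RNA-seq levels from 6.50 to 574 TPM, an 88.4-fold range. The SD of log2 TPM was 0.89 in PRO-seq and 1.47 in RNA-seq. The same order held over all 8723 mRNAs past the limits, where the SDs were 1.24 and 2.05. The limits bear on this order, since they cut PRO-seq at 10 TPM and RNA-seq at 1 TPM. The 3 matched genes left out all failed in PRO-seq, with 8.01 (NUF2), 1.075 (PRC1) and 0.567 TPM (NUSAP1). With them PRO-seq levels ran from 0.567 to 214 TPM and RNA-seq levels from 3.63 to 574 TPM, and PRO-seq had the wider range. Libraries of 1 assay were close, with a median SD between replicates of 0.0379 (PRO-seq, n = 2) and 0.0563 (RNA-seq, n = 4) on the log2 scale. CDC25B, a phosphatase that activates CDK1, was the exception at the low end of expression, with SDs of 0.369 and 0.236.

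Relative RNA half-life was taken as the log2 ratio of RNA-seq TPM to PRO-seq TPM, set to 0 at the median mRNA. At steady state, and with PRO-seq taken as the rate of RNA production, that ratio is proportional to the lifetime of the RNA. It has no unit of time, and each value is a log2 difference from the median mRNA. The authors state that PRO-seq density also depends on the elongation rate, for which no correction was made here. Statements on how strongly a gene was transcribed refer to this density. The mitotic genes were shifted upwards. Their median log2 half-life was 0.78, a 1.71-fold ratio to the median mRNA, with quartiles at 0.22 and 1.51, while the quartiles of all mRNAs lay at -1.06 and 1.08. By the quasi-likelihood test of edgeR, with p-values adjusted over all 9917 TUs (Benjamini-Hochberg), 30 of the 39 were called above the median mRNA and 6 below, and 3 were not called. The background shares were 45.4% of mRNAs called above and 44.9% called below (40.4% and 49.9% of all TUs). The test resolved small differences, with SEs between 0.0384 and 0.179, so a stricter rule was also used. In edgeR's test for a difference of more than 2-fold, 14 of the 39 were above and 4 below, against 24.3% and 23.1% of mRNAs.

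**Figure D1:**
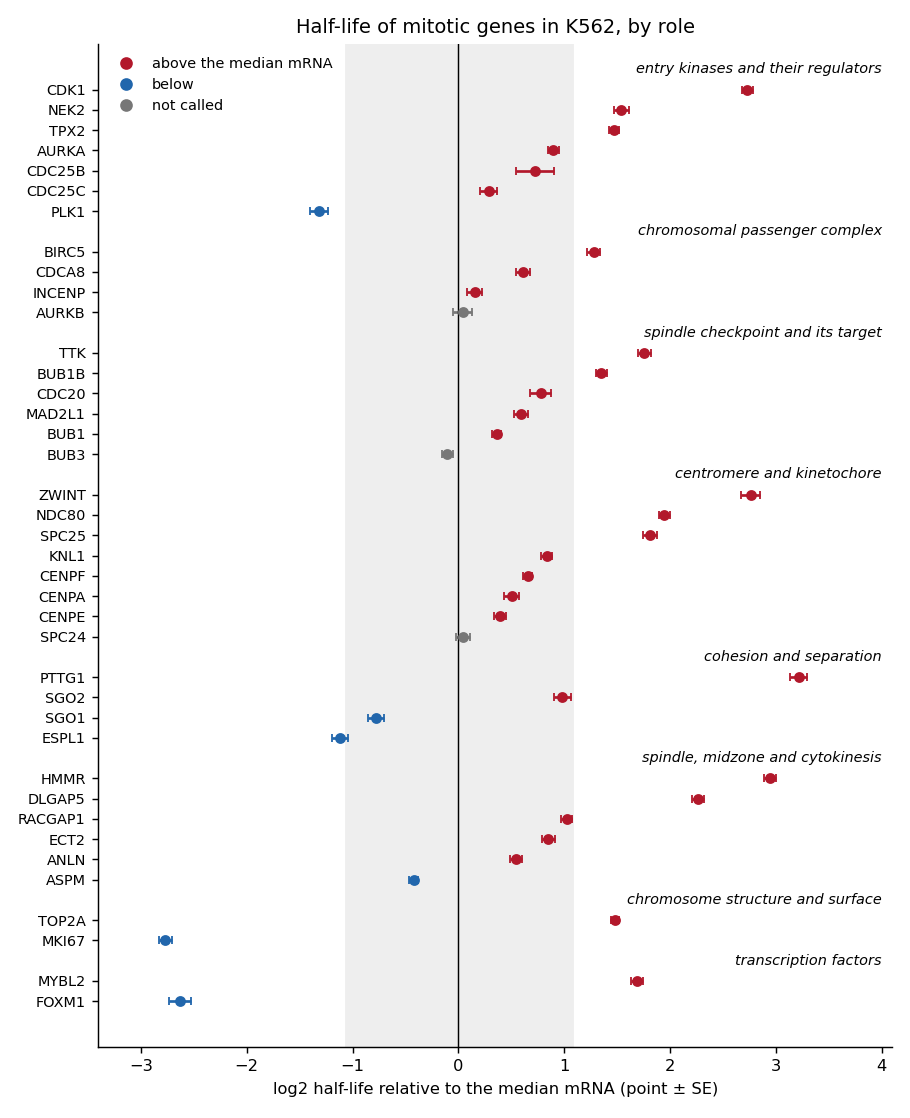
Log2 half-life relative to the median mRNA for the 39 mitotic genes, grouped by role. Points are values, bars are edgeR SEs, colour gives the call, the vertical line is the median mRNA and the grey band its quartiles (-1.06 to 1.08). The role groups span between 1.24 and 4.33 log2 units.

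The shared promoter words of this program were present at both ends of that range. A RefSeq table of promoter windows on GRCh38.p14, each from 250 bases before to 50 bases after a start, held 47 windows of 35 of the 43 genes. TPX2, BIRC5, KNL1, TTK, AURKA, RACGAP1, FOXM1 and BUB3 had none. The words searched were the CHR words TTTGAA (with its complement TTCAAA) and TTTAAA (its own complement), and CCAAT (with its complement ATTGG), on both strands. A CCAAT word can share bases with its own complement or with a CHR word. A CHR word stood in 35 of the 47 windows (74.5%), against 24.0% of all 35116 windows and 16.5% of the windows of mRNAs past the expression limits. CCAAT stood in 36 (76.6%), against 34.6% of all windows and 35.7% of those of the expressed mRNAs. At least 2 CCAAT words stood in 23 of the 47, against 10.6% of all windows. Both kinds of word stood in 28 windows (59.6%), against 9.27% of all. Position was looked at after these counts were seen. A CHR word lay within the last 70 bases before the start in 20 windows (42.6%), against 5.81% of all windows. Windows of 1 gene can overlap, and a match shows only that the letters are there.

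Among genes with a window, the 4 of highest and the 4 of lowest log2 half-life are printed, to show that the same letters precede genes at both ends. Each line holds the 200 bases before the start, 5′ to 3′, with CHR and CCAAT words in capitals. Where a gene had more than 1 window, the one with most words was taken. This choice arose for PTTG1, ZWINT and CDK1, with 2 windows each, and for none of the 4 of lowest log2 half-life. It can therefore raise the words shown at the high end only.
PTTG1 (3.21; chr5:160421655-160421854, plus strand): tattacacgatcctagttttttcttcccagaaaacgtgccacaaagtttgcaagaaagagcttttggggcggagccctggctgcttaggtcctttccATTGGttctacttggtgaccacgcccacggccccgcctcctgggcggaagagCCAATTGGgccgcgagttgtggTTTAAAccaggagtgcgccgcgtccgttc
HMMR (2.95; chr5:163460432-163460631, plus strand): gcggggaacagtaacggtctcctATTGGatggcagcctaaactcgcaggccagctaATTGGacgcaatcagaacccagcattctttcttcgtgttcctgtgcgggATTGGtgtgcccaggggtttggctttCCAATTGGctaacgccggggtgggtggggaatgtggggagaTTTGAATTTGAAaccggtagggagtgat
ZWINT (2.76; chr10:56361260-56361459, minus strand): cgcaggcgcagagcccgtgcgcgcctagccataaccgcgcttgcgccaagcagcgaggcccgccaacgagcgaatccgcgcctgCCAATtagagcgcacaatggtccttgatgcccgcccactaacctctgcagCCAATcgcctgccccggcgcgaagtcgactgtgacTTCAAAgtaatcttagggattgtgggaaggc
CDK1 (2.73; chr10:60778278-60778477, plus strand): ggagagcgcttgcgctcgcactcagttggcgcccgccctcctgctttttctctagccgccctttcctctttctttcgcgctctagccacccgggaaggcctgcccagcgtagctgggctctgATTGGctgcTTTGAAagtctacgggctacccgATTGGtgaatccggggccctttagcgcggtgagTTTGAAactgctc
MKI67 (-2.77; chr10:128126424-128126623, minus strand): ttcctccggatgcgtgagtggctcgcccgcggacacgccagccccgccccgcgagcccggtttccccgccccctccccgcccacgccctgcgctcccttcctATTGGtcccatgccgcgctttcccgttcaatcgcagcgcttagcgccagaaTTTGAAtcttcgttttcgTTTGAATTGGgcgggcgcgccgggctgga
PLK1 (-1.32; chr16:23678689-23678888, plus strand): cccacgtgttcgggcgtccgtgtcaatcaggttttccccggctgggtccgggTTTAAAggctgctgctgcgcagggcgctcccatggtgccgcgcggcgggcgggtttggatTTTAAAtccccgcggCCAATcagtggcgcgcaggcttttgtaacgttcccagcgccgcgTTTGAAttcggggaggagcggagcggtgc
ESPL1 (-1.12; chr12:53268099-53268298, plus strand): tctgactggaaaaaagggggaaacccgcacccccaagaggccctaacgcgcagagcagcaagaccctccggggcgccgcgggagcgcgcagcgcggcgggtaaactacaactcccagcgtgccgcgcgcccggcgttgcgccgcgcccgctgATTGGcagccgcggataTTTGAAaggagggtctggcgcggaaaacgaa
SGO1 (-0.78; chr3:20186207-20186406, minus strand): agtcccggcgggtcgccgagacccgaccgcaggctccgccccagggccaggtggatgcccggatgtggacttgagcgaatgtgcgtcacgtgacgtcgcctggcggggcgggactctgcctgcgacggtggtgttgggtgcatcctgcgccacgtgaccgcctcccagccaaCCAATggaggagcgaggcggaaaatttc

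In 7 of these 8 sequences a CHR word was present, and in each of the 7 its nearest copy began between 13 and 31 bases before the start. The SGO1 sequence held a CCAAT word and no CHR word. HMMR had 5 CCAAT words, the most of the 8, and 2 CHR words, PLK1 had 3 CHR words, and MKI67, with the lowest log2 half-life, had 2 of each.

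Among the kinases that start mitosis and their regulators, 6 of 7 genes were above the median mRNA and PLK1 was below. This count and those of the role groups below are small. They are to be read against the shares of all mRNAs, 45.4% called above and 44.9% below, and no difference between role groups was tested. CDK1, the kinase that drives entry into mitosis (GRCh37 chr10:62538236-62554610, plus strand, 8 exons), had RNA-seq levels of 554, 576, 581 and 592 TPM in replicates 1 to 4 and PRO-seq levels of 145 and 125 TPM. It had the highest RNA-seq level of the 39 genes, above 98.5% of mRNAs with a count. Its log2 half-life was 2.73 (SE 0.0535, edgeR adjusted p = 6.9e-29), a 6.63-fold difference from the median mRNA. PLK1, the Polo kinase of spindle assembly and mitotic exit, was transcribed at a similar level, with 156 and 165 TPM in PRO-seq, but reached only 43.4, 38.1, 48.9 and 36.6 TPM in RNA-seq. Its log2 half-life of -1.32 (SE 0.0849, edgeR adjusted p = 3.0e-15) lay 4.05 below that of CDK1, with 13.9-fold less RNA. The transcript counted for PLK1 (GRCh37 chr16:23688977-23701687, plus strand) is annotated as a retained intron form with 4135 exon bases, against 2160 in the canonical transcript, and the longer length lowers its RNA TPM. How much of the PLK1 value comes from this length was not tested.

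The other entry genes fell in between. NEK2, a centrosome kinase, had a log2 half-life of 1.54, and TPX2, the spindle factor that activates Aurora A, one of 1.47. AURKA itself, the Aurora kinase of centrosomes, had 0.90, so TPX2 and its kinase differed by 0.57 (combined SE 0.0687, taking the errors of the 2 genes as independent). The CDC25 phosphatases, which remove the inhibitory phosphates of CDK1, were the least expressed of this group. CDC25B had 13.0, 9.13, 12.6 and 10.7 TPM in RNA-seq and 8.66 and 12.4 TPM in PRO-seq, and its log2 half-life of 0.73 had the largest SE of the 39 genes (0.179, edgeR adjusted p = 0.00039). Without PRO-seq replicate 2, CDC25B no longer met the PRO-seq limit and had no estimate. CDC25C had a log2 half-life of 0.29 (SE 0.0766, edgeR adjusted p = 0.0009). The counted transcripts of NEK2, CDC25B and CDC25C cover 58.7%, 86.5% and 74.9% of the canonical exon bases. Those of NEK2 and CDC25B span 16974 and 19350 bases against 12850 and 9806 in the canonical transcripts, and NEK2 has 3 annotated copies. How far these limits set the 3 values was not tested.

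In the chromosomal passenger complex, which corrects faulty attachments of kinetochores and later directs cytokinesis, the 4 subunits were transcribed within a 2.67-fold range and none was below the median mRNA. BIRC5, also known as survivin, had RNA-seq levels of 168, 162, 159 and 165 TPM and PRO-seq levels of 105 and 105 TPM. AURKB, the kinase of the complex, had 94.6, 95.8, 87.3 and 92.4 TPM in RNA-seq and 141 and 140.2 TPM in PRO-seq. The 2 genes did not overlap in either assay, and their order was reversed: AURKB was transcribed more and BIRC5 had more RNA. BIRC5 had a log2 half-life of 1.28 (SE 0.0638, edgeR adjusted p = 3.9e-18). AURKB had 0.04 (SE 0.0895, edgeR adjusted p = 0.68), a difference of 1.24 with a combined SE of 0.11. With the TPM limits dropped and at least 1 count in each assay, AURKB was called above (0.67, edgeR adjusted p = 3.5e-13), and set against the median of all TUs it was also called above (0.27, edgeR adjusted p = 0.0065). CDCA8, the borealin subunit, had 0.61. INCENP, the scaffold, had 0.15, and its call was marginal (edgeR adjusted p = 0.048). Leaving out a single library took the adjusted p of INCENP to 0.2 without RNA-seq replicate 1, to 0.063 without RNA-seq replicate 3, and to 0.14 and 0.15 without PRO-seq replicates 1 and 2. Summing the close RNA-seq pairs gave 0.071, and DESeq2 gave 0.14.

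The spindle checkpoint genes had RNA at nearly 1 level. The 6 genes spanned 39.0 to 145 TPM in PRO-seq, a 3.72-fold range, and 84.7 to 158 TPM in RNA-seq, a 1.86-fold range, the reverse of the order seen over all 39 genes. TTK, the MPS1 kinase that switches the checkpoint on, had RNA-seq levels of 83.9, 85.8, 81.0 and 87.4 TPM from PRO-seq levels of 40.8 and 37.3 TPM. BUB3, which binds phosphorylated kinetochores and brings in BUB1 and BUBR1, had 83.5, 87.8, 87.5 and 88.8 TPM in RNA-seq from 152 and 139 TPM in PRO-seq. With the transcripts counted, their RNA levels overlapped, while TTK had 0.269 times the PRO-seq level of BUB3. The TTK transcript counted has 3725 exon bases, against 2966 in the canonical transcript, and the longer length lowers its RNA TPM. BUB3, BUB1, CDC20 and MAD2L1 each have 1 annotated copy, with which reads could be shared. How far the overlap and the values of this group depend on these limits was not tested. The log2 half-life of TTK was 1.76 (SE 0.063, edgeR adjusted p = 6.4e-22) and that of BUB3 was -0.10 (SE 0.0548, edgeR adjusted p = 0.082).

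The BUB3 value sits next to the median and its sign depended on the settings. Without PRO-seq replicate 2 it was called below (-0.19, edgeR adjusted p = 0.012), and it was called below with limits of 20 and 2 TPM (-0.14, edgeR adjusted p = 0.019). When set against the median of all TUs it was called above (0.12, edgeR adjusted p = 0.032), as it was with at least 1 count in place of the TPM limits (0.52, edgeR adjusted p = 1.5e-22). The remaining checkpoint genes were all above the median mRNA. BUB1B, which encodes BUBR1, had 1.35 and BUB1, the kinase that marks centromeric chromatin, had 0.36, although their RNA levels were within 1.05-fold. MAD2L1, the MAD2 protein that captures CDC20, had 0.59, and CDC20, the target of the checkpoint, had 0.78 (SE 0.0978) from 240 PRO-seq counts.

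At the centromere and kinetochore, 7 of 8 genes were above the median mRNA and SPC24 was not called. ZWINT, which links the outer kinetochore to checkpoint proteins (GRCh37 chr10:58116988-58121020, minus strand), had 404, 418, 395 and 413 TPM in RNA-seq, the second highest level of the 39 genes, from 101 and 86.5 TPM in PRO-seq. Its log2 half-life was 2.76 (SE 0.0884, edgeR adjusted p = 3.2e-23), which rested on 148 PRO-seq counts. SPC24 had 124, 127, 115 and 114 TPM in RNA-seq and 176 and 190.3 TPM in PRO-seq, the second highest PRO-seq level, and a log2 half-life of 0.04 (SE 0.0655, edgeR adjusted p = 0.54). SPC24 was called above with at least 1 or at least 10 summed counts in place of the TPM limits (0.67 and 0.16, edgeR adjusted p = 5.6e-23 and 0.024) and against the median of all TUs (0.27, edgeR adjusted p = 0.00039). ZWINT thus had more RNA and SPC24 more transcription in every library. KNL1, the platform on which the checkpoint proteins gather, had a log2 half-life of 0.84. The centromere proteins CENPF, CENPA and CENPE followed with 0.66, 0.50 and 0.40. CENPA is the histone H3 variant that marks the centromere, and CENPE is the kinesin that moves chromosomes to the plate. The CENPA transcript overlaps SLC35F6 on the same strand over 55.9% of its span and 11.4% of its exon bases. It has no annotated coding part, covers 77.0% of the canonical exon bases and spans 30301 bases against 8534 in the canonical transcript. How far this choice of transcript sets the CENPA value was not tested.

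NDC80, the subunit that grips microtubules, had a log2 half-life of 1.95, SPC25 had 1.81 and SPC24 0.04, so the 3 measured parts of the NDC80 complex differed 2.86-fold in PRO-seq and 1.65-fold in RNA-seq. The fourth part, NUF2, had 92.7 TPM in RNA-seq (715 counts) but 8.01 TPM in PRO-seq (289 counts), below the limit of 10 TPM. These values depend on the transcripts counted. Those of NUF2, SPC24 and SPC25 cover only 20%, 19.3% and 31.1% of the exon bases of the canonical transcripts and extend over longer spans, with 70211, 24263 and 55162 bases against 33806, 10290 and 19540. In addition, 78.6% of the NUF2 span and 56.1% of the SPC25 span lie across from counted transcripts of that strand. Whether reads were counted by strand is stated in no source used here.

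The genes of cohesion and its release spanned 4.33 log2 units of half-life, the widest range of the 8 role groups. PTTG1, the securin that keeps separase inactive (GRCh37 chr5:159848862-159855746, plus strand, 6 exons and 715 exon bases), had 393, 382, 399 and 392 TPM in RNA-seq from 69.8 and 61.3 TPM in PRO-seq. ESPL1, separase itself, had 18.1, 17.4, 17.2 and 17.0 TPM in RNA-seq from 55.7 and 62.3 TPM in PRO-seq. The PRO-seq levels of inhibitor and enzyme overlapped, with a ratio of 1.11, while all 4 RNA levels of PTTG1 were far above those of ESPL1, at 22.3-fold. PTTG1 had the highest log2 half-life of the 39 genes, 3.21 (SE 0.0845, edgeR adjusted p = 1.7e-25), above 97.2% of mRNAs. ESPL1 had -1.12 (SE 0.0749, edgeR adjusted p = 7.2e-15). PTTG1 has the annotated copies PTTG2 and PTTG3P, with which reads could be shared, and its value is uncertain to that extent.

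The shugoshins, which protect centromeric cohesin, also fell on opposite sides. SGO2 had a log2 half-life of 0.98 from a PRO-seq level of 20.1 TPM, and SGO1 had -0.78 from 81.1 TPM, with RNA-seq levels of 25.5 and 30.4 TPM. The SGO1 transcript counted covers 55.5% of the canonical exon bases, and SGO1 was no longer called with the TPM limits dropped and at least 1 count in each assay (-0.15, edgeR adjusted p = 0.17).

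**Figure D2:**
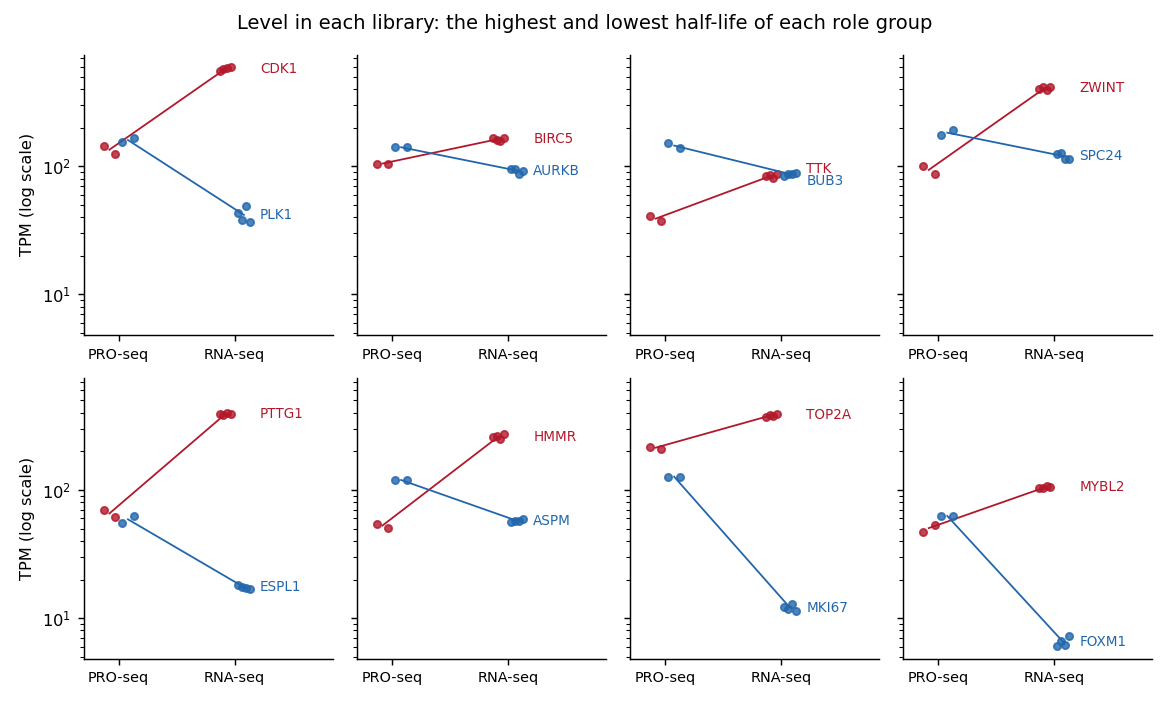
TPM (log scale) in each library for the most stable (red) and the least stable gene (blue) of each of 8 role groups, with PRO-seq on the left (2 libraries) and RNA-seq on the right (4 libraries). Lines join the means. In PTTG1 and ESPL1 the PRO-seq levels overlap and the RNA-seq levels differ 22.3-fold, while in TTK and BUB3 the PRO-seq levels differ and the RNA-seq levels overlap. The counted TTK transcript is longer than the canonical one, which lowers its RNA-seq TPM.

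Of the genes of the spindle, its midzone and cytokinesis, 5 of 6 were above the median mRNA. HMMR, a spindle pole protein and hyaluronan receptor (GRCh37 chr5:162887638-162918947, plus strand), had 259, 263, 250.3 and 272 TPM in RNA-seq from 54.7 and 50.9 TPM in PRO-seq, and a log2 half-life of 2.95 (SE 0.0547, edgeR adjusted p = 1.8e-29). ASPM, which holds spindle poles in focus, had more transcription, 120.5 and 119 TPM, and less RNA, 56.0, 57.0, 57.8 and 59.2 TPM. Its log2 half-life was -0.42 (SE 0.0437, edgeR adjusted p = 2.3e-10), on a counted transcript with 56.2% of the canonical exon bases. With the TPM limits dropped and at least 1 count in each assay, ASPM was called above (0.20, edgeR adjusted p = 2.6e-06). DLGAP5, a microtubule binding protein of the spindle, had 2.27. RACGAP1 and ECT2, which place the contractile ring by switching on RhoA, had 1.02 and 0.85, and ANLN, the anillin of the ring, had 0.55.

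The midzone bundler PRC1 and the spindle protein NUSAP1 had almost no PRO-seq counts. PRC1 had 5 and 11 counts in PRO-seq and 50, 67, 23 and 62 counts in RNA-seq. NUSAP1 had 5 and 9 counts in PRO-seq and 188, 184, 112 and 128 counts in RNA-seq. Both transcripts lie within counted transcripts of other gene models on the same strand, which share 99.6% of the span of PRC1 and 99.4% of that of NUSAP1, and 65.4% and 72.3% of their exon bases. Neither met the PRO-seq limit, and no half-life is given for them.

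The genes of chromosome structure and surface fell on opposite sides of the median mRNA. TOP2A, the topoisomerase that untangles sister chromatids (GRCh37 chr17:38544777-38574148, minus strand), had the highest PRO-seq level of the 39 genes, 217 and 210.3 TPM, and 371, 387, 380.3 and 395 TPM in RNA-seq. MKI67, the Ki-67 protein that coats mitotic chromosomes and serves as a marker of dividing cells (GRCh37 chr10:129894923-129924687, minus strand), had 127 and 127 TPM in PRO-seq but 12.1, 11.7, 12.9 and 11.4 TPM in RNA-seq. TOP2A was 1.68-fold above MKI67 in PRO-seq and 31.9-fold above it in RNA-seq. TOP2A had a log2 half-life of 1.48 (SE 0.0384, edgeR adjusted p = 1.1e-25). MKI67 had the lowest of the 39 genes, -2.77 (SE 0.0592, edgeR adjusted p = 7.5e-28), above only 4.9% of mRNAs. Its counted transcript is the canonical one, with 12716 exon bases, and 1 annotated copy exists.

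The transcription factors of the program differed in the same way. MYBL2, or B-MYB, had 104, 103, 107 and 105 TPM in RNA-seq from 47.1 and 53.7 TPM in PRO-seq. FOXM1 had 6.05, 6.57, 6.15 and 7.27 TPM in RNA-seq, the lowest RNA level of the 39 genes, from 62.9 and 62.5 TPM in PRO-seq. The RNA of MYBL2 was 16.1-fold higher although FOXM1 was the more transcribed of the 2. The log2 half-lives were 1.69 (SE 0.0576, edgeR adjusted p = 1.6e-22) for MYBL2 and -2.63 (SE 0.104, edgeR adjusted p = 7.6e-21) for FOXM1. FOXM1 shares 12.9% of its exon bases with ITFG2 on the other strand. Both MKI67 and FOXM1 remained below under the 2-fold test, with PLK1 and ESPL1 the other two.

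Log2 half-life was set beside gene structure as a description, and differences between the 39 genes and all mRNAs were not tested. Across genes, which share the same libraries and are not independent replicates, Spearman's rho with exon length was -0.381 over the 39 genes and -0.334 over 8723 mRNAs. With splice junction density (junctions per exon base) it was 0.364 and 0.369. Exon length divides RNA-seq TPM and is therefore part of the ratio, as it is of junction density, so these values hold a built-in link. So do those for intron length, which is part of the span that divides PRO-seq TPM. Coding and 3′ UTR length are parts of exon length and share its link. With intron length rho was 0.082 and 0.0607. With 3′ UTR length it was -0.14 over the 36 genes whose counted transcript has an annotated coding part, and -0.291 over 8338 mRNAs. With coding length it was -0.252 and -0.208 over the same genes. PRO-seq TPM, which is itself part of the ratio, gave -0.204 and -0.012. The median exon length of the 39 genes, 3110 bases, was close to that of all mRNAs, 3070 bases. Their median 3′ UTR was 750 bases against 1200, and their median coding length 2100 bases against 1300.

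Other genes of mitosis were listed by function. In 7 lists with 99 genes, 92 had an estimate, of which 54 (58.7%) were called above the median mRNA and 30 (32.6%) below, with a median log2 half-life of 0.46. The shares over all mRNAs were 45.4% above and 44.9% below, and each count below is to be read against these. No difference between lists was tested, and the counted transcripts of their genes were not compared with the canonical ones. Of the constitutive centromere network, which builds the platform under the kinetochore, 12 of 18 were above and 4 below. The outer kinetochore genes of the MIS12, SKA and RZZ complexes had 7 of 10 above and 2 below, and condensin, which compacts chromosomes, 6 of 8 above and 2 below. Cohesin and its regulators had 6 of 10 above and 3 below.

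The anaphase promoting complex with its E2 enzymes had 8 of 17 above and 8 below, near the shares over all mRNAs. Its highest value was 4.43 (SE 0.0833) for ANAPC5, a scaffold subunit. The PRO-seq level of ANAPC5, 14.2 TPM, lay not far above the limit of 10 TPM and under the alternative limit of 20 TPM. The lowest value of this list was -3.89 (SE 0.372) for UBE2C, the E2 enzyme that starts ubiquitin chains on substrates of the complex. Its 1.72 TPM in RNA-seq lay just above the limit of 1 TPM and under the alternative limit of 2 TPM. The centriole and spindle assembly genes had 9 of 18 above and 7 below, and the mitotic cyclins and entry regulators 6 of 11 above and 4 below, counts that were also not far from those shares. In the latter list cyclin B1 (CCNB1), the partner of CDK1, had the highest value, 2.16, and the inhibitory kinase PKMYT1 the lowest, -1.74. The DNA replication genes of S phase, taken for comparison, had 21 of 25 above and 3 below with a median of 1.14, so a raised median was also seen outside the mitotic genes. Whether these lists differ from the 39 genes was not tested.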

How the data were processed

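For each library the authors deposited raw HTSeq counts per transcript, without normalization, as the values show (whole numbers). Trimming used Cutadapt, alignment to GRCh38 used HISAT2, and GENCODE transcripts were counted, for PRO-seq without the 500 bp next to either end. No source used here names tool versions or a strand setting. HTSeq's rows for records with no TU (66.5% to 68.6% of RNA-seq and 86.5% to 88.6% of PRO-seq records) were left out of library sizes and tests.

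Of 42371 transcripts, 37339 (88.1%) matched GENCODE v44 mapped to GRCh37, which gave symbols, lengths and the coordinates printed for genes; promoter windows are on GRCh38.p14. The unmatched ones held 2.80% to 3.69% of counts. TPM used exon length for RNA-seq and span minus 1000 bp for PRO-seq, with 1 TU per gene (the transcript with most RNA-seq counts). The log2 half-life is the log2 ratio of RNA-seq to PRO-seq TPM, from counts summed over libraries, for TUs with a PRO-seq TPM over 10 and an RNA-seq TPM over 1, minus the median over mRNAs. The test was edgeR 4.0.16 (quasi-likelihood, TMM, length offsets, no pseudocount) in R 4.3.3 over mRNAs, lincRNAs, antisense genes and pseudogenes together, with the null at the median mRNA. Calls used an adjusted p under 0.05. SEs are the fitted difference divided by the root of F, and the fit differed from the TPM ratio by at most 0.007 for the genes described. The fits were tested on simulated data first. DESeq2 1.42.0 and the other alternatives are under the dependence on processing.

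The genes and lists were chosen with earlier results of these data known. In each role group the genes with the highest and lowest log2 half-life are given in every library, as are the 3 highest in each assay; other members are given by value. Replicate numbers 1 and 2 occur in both assays but do not pair the libraries (correlation of their differences -0.0125 over 9829 TUs).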

Additional observations from a re-analysis of the deposited data

Results flagged for a closer look

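Of the 42 matched genes, each tested over its 4 RNA-seq libraries with Dixon's ratio at its 95% critical value, 1 had a library apart from the rest, where chance alone gives about 1 in 20. For BUB1, the checkpoint kinase, RNA-seq replicate 2 stood at 100.1 TPM below the other 3 at 104.6, 104.6 and 104.8 TPM, a gap of 0.949 of the range on the log2 scale. BUB1 was called above the median mRNA with 0.36 (SE 0.0469), and this call held without any single library.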

How the results depend on the processing

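Fits under 22 alternatives changed the call of 21 of the 39 genes at least once, 18 of them under the 2-fold test. Over all genes and alternatives, 814 of 856 values kept their call or lay within the spread between replicates. Leaving out 1 library in turn gave 28 to 30 genes above, 6 to 7 below, a median log2 half-life of 0.755 to 0.825 and 38 to 39 genes with an estimate; a lone PRO-seq library was assumed to have the spread of the RNA-seq libraries. The replicate block, with the 4 libraries numbered 1 and 2, gave 30 above and 6 below, and the same libraries with no replicate block, a fit added after seeing the data, also gave 30 and 6. Summing RNA-seq replicates 1 and 3, and 2 and 4, also added after seeing the data, gave 29 above and 6 below, as did DESeq2.

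The median was 1.47 with at least 1 summed count in place of the TPM limits (37 above, 4 below) and 0.96 with at least 10 (34 and 6), both over 42 genes since the 3 below the limits enter, and 1.00 when set against the median of all TUs. In the first of these ASPM was called above (0.20), BUB3 reversed to 0.52, and AURKB and SPC24 were called above (0.67 each). In the last BUB3 reversed to 0.12. In these settings the RNA to PRO-seq ratio of each gene stayed the same, and only the median subtracted from it changed. From the main fit to the first of them, ASPM went from -0.42 to 0.20 and AURKB from 0.04 to 0.67. The reversed values are therefore shifts of the reference, while the medians over 42 genes also hold the 3 added genes. The 2-fold test left 14 above. Among the 22 genes with an estimate that overlap no gene on the same strand and have no annotated copy, 18 were above and 3 below. Among the 28 whose counted transcript is close to the canonical one (at least 90% of its exon bases, at most 1.2 times its length, under 5% of exon bases shared), a choice made after seeing the data, 24 were above and 2 below (MKI67 and ESPL1), with a median of 0.87. Low PRO-seq counts limit CDC25B (101), ZWINT (148) and PTTG1 (201), and NUSAP1 (14) and PRC1 (16), which lie within other counted transcripts, have no half-life. Relative half-life assumes steady state and PRO-seq levels that follow the rate of transcription whatever the elongation rate, and neither was tested.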
